A study of Mus musculus with 114 samples.

Results

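Proliferation genes were examined in the adipocyte fraction of mouse fat as a set of 10 genes taken by their symbols, namely Mki67, Top2a, Cdk1, Ccnb1, Ccnb2, Ccna2, Birc5, Mcm2, Mcm5 and Pcna. All 10 were found among the 29132 genes measured, and all 10 passed the filter on low values that left 12915 genes for testing. The RNA came from floating cells of the perigonadal white adipose tissue (PGWAT) of 38 male C57BL/6J mice, separated from the stromal vascular fraction by collagenase digestion and centrifugation and not sorted by any marker. From 6 weeks of age the mice were kept on a control chow (CD) or on a high fat diet (HFD) for 8, 20 or 34 weeks and were 14, 26 or 40 weeks old at harvest. Each group held 6 mice, except CD at 34 weeks with 8. The mice of the 3 durations were different animals, and duration cannot be told apart from age or from anything else that differed between the harvests.

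Cells that divide pass through G1, copy their DNA in S phase, prepare in G2 and separate their chromosomes in mitosis, and most of the genes examined are transcribed mainly from S phase to mitosis. Mature adipocytes are generally regarded as cells that have left the cell cycle, whereas macrophages, progenitors and endothelial cells of fat can divide. Mki67 encodes the Ki-67 protein that coats mitotic chromosomes, Top2a encodes the DNA topoisomerase that untangles replicated DNA, and Cdk1 encodes the kinase that drives entry into mitosis. Ccnb1 and Ccnb2 encode the B type cyclins that activate this kinase, Ccna2 encodes the cyclin of S and G2 phase, and Birc5 encodes survivin, a subunit of the chromosomal passenger complex. Mcm2 and Mcm5 encode subunits of the replicative helicase, and Pcna encodes the sliding clamp of DNA polymerases, which also serves DNA repair outside S phase.

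Expression is given as CPM, the reads of a gene per 1000000 reads on all listed genes of a mouse. The mice had 9275711 to 15480388 reads on genes, and 1 read equalled 0.0646 to 0.108 CPM. Differences were tested on log2(CPM + 1) with limma over the 12915 genes whose mean on this scale exceeded 0.5, with Benjamini-Hochberg adjusted p-values and a threshold of 0.05. A gene was called when it passed that threshold. Fold changes on this scale understate the change of genes near or below 1 CPM, so ratios of mean CPM are given beside them. All genes tested shifted with the scaling, since their median difference between the diets was 0.13, 0.15 and 0.07 at 8, 20 and 34 weeks and 0.04, -0.04 and -0.01 with TMM scaling, and between CD mice of 34 and 20 weeks it was 0.17 and 0.03. With TMM scaling the called genes of the 20 week diet comparison split into 3582 higher and 3843 lower, against 4930 and 2297 without it. The corresponding splits were 2847 and 2466 against 3663 and 1794 at 8 weeks, and 2902 and 2520 against 3476 and 1961 at 34 weeks. In CD mice of 34 against 20 weeks they were 3704 and 3499 against 5036 and 2557, and in HFD mice of 20 against 8 weeks 2408 and 2416 against 2750 and 1717. The changes of the diet difference split into 344 and 318 against 415 and 218 from 8 to 20 weeks and 916 and 531 against 498 and 778 from 20 to 34 weeks. Adipocyte markers were abundant in every mouse, with a median Adipoq (adiponectin) between 2998 and 5881 CPM in the 6 groups.

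The upstream sequences of 6 of the genes are shown because they hold letters known from the promoters of cell cycle genes, which the rule for the genes did not use. The choice favours genes with such letters, and Birc5, which held none of those searched, is not shown. Ccnb1 and Mcm2, which also held such letters, are not shown either. They come from RefSeq on GRCm38.p6, where 9 of the 10 genes had an entry and Ccna2 had none. All sequences run 5′ to 3′ on the strand of the gene up to its start, or up to the outermost annotated start where that lies further upstream. Capitals mark the letters CCAAT, known from the CCAAT box that NF-Y binds, and TTTGAA, known from the core of the cell cycle homology region of late cell cycle genes, on either strand.
Mki67: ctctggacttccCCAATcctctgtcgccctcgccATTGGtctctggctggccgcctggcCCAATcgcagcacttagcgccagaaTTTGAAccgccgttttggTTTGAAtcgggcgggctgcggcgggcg
Top2a: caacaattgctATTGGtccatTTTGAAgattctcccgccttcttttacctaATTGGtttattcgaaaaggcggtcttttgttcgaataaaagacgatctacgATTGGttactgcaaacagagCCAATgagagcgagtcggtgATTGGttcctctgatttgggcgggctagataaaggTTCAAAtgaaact
Cdk1: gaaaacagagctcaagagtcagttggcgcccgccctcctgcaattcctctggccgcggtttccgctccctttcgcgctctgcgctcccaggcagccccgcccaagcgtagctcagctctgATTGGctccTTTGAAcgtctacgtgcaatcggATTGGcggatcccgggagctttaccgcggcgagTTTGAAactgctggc
Ccnb2: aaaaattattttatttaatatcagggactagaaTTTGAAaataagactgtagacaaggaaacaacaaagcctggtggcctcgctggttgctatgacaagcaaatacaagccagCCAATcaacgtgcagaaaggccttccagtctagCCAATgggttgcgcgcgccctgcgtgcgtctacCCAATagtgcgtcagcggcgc
Mcm5: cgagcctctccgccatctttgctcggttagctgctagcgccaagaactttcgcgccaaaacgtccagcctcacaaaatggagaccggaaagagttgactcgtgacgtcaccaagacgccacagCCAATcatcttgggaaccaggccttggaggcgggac
Pcna: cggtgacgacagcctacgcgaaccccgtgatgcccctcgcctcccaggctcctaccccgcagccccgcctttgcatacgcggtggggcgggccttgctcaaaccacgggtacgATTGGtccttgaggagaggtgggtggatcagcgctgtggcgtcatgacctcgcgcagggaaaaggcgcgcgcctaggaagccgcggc
These stretches lie at chr7:135716451-135716579, chr11:99024200-99024389, chr10:69352913-69353112, chr9:70421555-70421754, chr8:75109309-75109467 and chr2:132253181-132253380, on the plus strand for Mcm5 and on the minus strand for the others.

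In the 200 bases before the start, CCAAT or its reverse complement ATTGG stood in 8 of the 9 genes, against 29.3% of 32851 RefSeq promoters of the same length. Birc5 was the gene without it. TTTGAA or TTCAAA stood in 5 of the 9 (Mki67, Top2a, Cdk1, Ccnb2 and Mcm2), against 12.5% of all promoters. GCGGGAA, letters found in many E2F sites, and TATAAA stood in 0 of the 9 on either strand, against 3.28% and 9.96% of all promoters. The letters of these motifs do not overlap each other in the stretches shown. Top2a held 5 copies of CCAAT on both strands, and Mki67 and Ccnb2 held 3 each, whereas 7.98% of all promoters held at least 2. In Ccnb2 the copies began 87, 54 and 21 bases before the start, all on the strand of the gene. Among other genes of the cell cycle, CCAAT was found upstream of 17 of 29 replication genes, 27 of 36 mitosis genes and 8 of 13 regulators of G1 with an entry. TTTGAA was found in 3, 11 and 4 of them, and GCGGGAA in 9, 0 and 3. These matches describe letters and are not evidence of binding. Of E2F sites only the letters GCGGGAA were searched, and other forms were not counted.

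**Figure D1:**
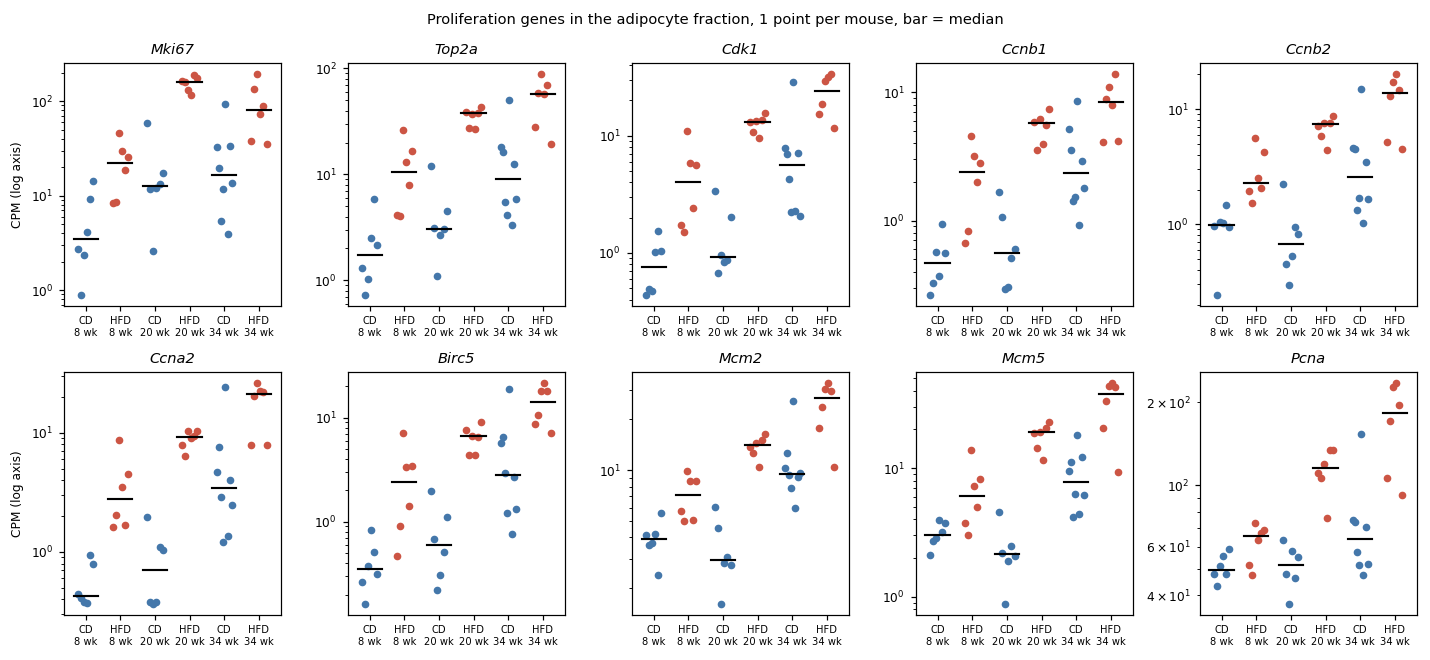
CPM of each proliferation gene (log axis) in CD (blue) and HFD (red) mice of 8, 20 and 34 weeks, with 1 point per mouse and a bar at the group median. In every panel the 20 week HFD mice lie above all 20 week CD mice, and Mki67 is the gene whose group median is highest in HFD mice of 20 rather than 34 weeks.

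Mki67 rose with HFD at all 3 durations. In CD mice its lowest, median and highest levels were 0.897, 3.45 and 14.2 CPM at 8 weeks, 2.58, 12.7 and 59.4 CPM at 20 weeks and 3.89, 16.7 and 94.2 CPM at 34 weeks. In HFD mice they were 8.29, 22.1 and 45.7 CPM at 8 weeks, 116, 161 and 191 CPM at 20 weeks and 35.4, 80.6 and 193 CPM at 34 weeks. The diets did not overlap at 20 weeks and overlapped at 8 and 34 weeks, where 4 of 6 and 2 of 6 HFD mice exceeded every CD mouse. The HFD minus CD difference was 1.96 ± 0.60 (SE) at 8 weeks (limma, adjusted p = 0.00919), 3.41 ± 0.60 at 20 weeks (adjusted p = 1.47e-05) and 2.10 ± 0.56 at 34 weeks (adjusted p = 0.00326), all on the log2(CPM + 1) scale. The corresponding ratios of mean CPM were 4.07, 8.03 and 3.50. The gene lies on chromosome 7 from 135689784 to 135716450 on the minus strand of GRCm38, and its reads numbered 11 to 179 per mouse in 8 week CD and 1633 to 2750 in 20 week HFD.

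Top2a followed the diet in the same direction and was highest in HFD mice of 34 weeks. Its lowest, median and highest levels were 0.734, 1.73 and 5.85 CPM in CD mice of 8 weeks, 1.10, 3.09 and 12.0 CPM at 20 weeks and 3.30, 9.13 and 50.3 CPM at 34 weeks. HFD mice had 4.09, 10.5 and 26.2 CPM at 8 weeks, 26.8, 37.6 and 43.7 CPM at 20 weeks and 19.4, 58.0 and 88.5 CPM at 34 weeks. All HFD mice stood above all CD mice at 20 weeks only, and 4 of 6 did so at both other durations. The difference was 1.88 ± 0.49, 2.96 ± 0.49 and 2.14 ± 0.46 at 8, 20 and 34 weeks (limma, adjusted p = 0.0028, 6.47e-06 and 0.000517), and the ratios of mean CPM were 5.30, 7.99 and 3.71.

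Of the genes of the mitotic kinase, Cdk1 had mean levels of 0.834 ± 0.444, 1.45 ± 1.05 and 7.69 ± 8.84 CPM (SD, n = 6, 6 and 8) in CD mice and 4.67 ± 3.60, 12.7 ± 2.1 and 23.4 ± 9.4 CPM (n = 6 each) in HFD mice at 8, 20 and 34 weeks. The difference between the diets was 1.43 ± 0.40, 2.55 ± 0.40 and 1.82 ± 0.37 (limma, adjusted p = 0.00493, 2.91e-06 and 0.00034). The B type cyclins that activate this kinase changed in the same direction. Ccnb1 had a median of 0.463, 0.554 and 2.37 CPM in CD and 2.39, 5.72 and 8.41 CPM in HFD mice, and its 8 week CD values rested on 3 to 11 reads per mouse. The Ccnb1 difference was 1.04 ± 0.32, 1.90 ± 0.32 and 1.22 ± 0.30 (limma, adjusted p = 0.00939, 6.96e-06 and 0.00151). Ccnb2 had a median of 0.994, 0.677 and 2.59 CPM in CD and 2.29, 7.37 and 13.9 CPM in HFD mice. The lowest Ccnb2 value in HFD mice of 8 weeks was 1.52 CPM and the highest in CD mice was 1.46 CPM. The diets thus did not overlap there, but the gap was smaller than 1 read in either mouse (0.076 and 0.086 CPM). The Ccnb2 difference was 0.97 ± 0.36, 2.11 ± 0.36 and 1.55 ± 0.34 (limma, adjusted p = 0.0312, 1.16e-05 and 0.000643).

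Ccna2, the cyclin of S and G2 phase, showed the largest ratio of mean CPM between the diets among the 10 genes at 20 weeks. Its lowest, median and highest levels at that time were 0.368, 0.712 and 1.96 CPM in CD and 6.37, 9.20 and 10.4 CPM in HFD mice, a ratio of means of 10.2. At 8 weeks they were 0.371, 0.424 and 0.946 CPM in CD and 1.60, 2.77 and 8.66 CPM in HFD mice, again with every HFD mouse above every CD mouse. The difference was 1.43 ± 0.39, 2.45 ± 0.39 and 1.75 ± 0.37 at 8, 20 and 34 weeks (limma, adjusted p = 0.00445, 4.31e-06 and 0.000438). An exon of Ccna2 overlaps an exon of Exosc9 on the opposite strand. The library kit keeps the strand, and whether the counting used it is not given in the sources used here. Exosc9, an RNA exosome gene, differed between the diets by 0.33 ± 0.12, 0.46 ± 0.12 and -0.01 ± 0.11. From 20 to 34 weeks Exosc9 rose by 0.95 ± 0.11 in CD and 0.48 ± 0.12 in HFD mice (limma, adjusted p = 1.21e-08 and 0.00298). From 8 to 20 weeks it differed by -0.14 and -0.02 (adjusted p = 0.589 and 0.931). Birc5 had a median of 0.348, 0.596 and 2.79 CPM in CD and 2.38, 6.61 and 14.2 CPM in HFD mice, with 2 to 9 reads per mouse in 8 week CD. The Birc5 difference was 1.19 ± 0.41, 2.07 ± 0.41 and 1.68 ± 0.38 (limma, adjusted p = 0.0196, 6.98e-05 and 0.000918).

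Among the replication genes, Mcm2 and Pcna had the smallest ratios of mean CPM between the diets at 20 weeks, 3.98 and 2.22, while Mcm5 (7.57) was within the range of 7.33 to 10.2 of the other genes. Mcm2 had 2.41, 3.92 and 5.55 CPM (lowest, median and highest) in CD and 5.00, 7.17 and 9.95 CPM in HFD mice at 8 weeks. At 20 weeks it had 1.62, 2.95 and 6.02 CPM in CD and 10.5, 14.1 and 16.5 CPM in HFD mice, and at 34 weeks 6.01, 9.47 and 25.6 CPM in CD and 10.4, 26.7 and 32.8 CPM in HFD mice. The Mcm2 difference was 0.71 ± 0.26, 1.79 ± 0.26 and 1.05 ± 0.24 (limma, adjusted p = 0.0246, 8.45e-07 and 0.000918). Mcm5 had a median of 3.01, 2.14 and 7.86 CPM in CD and 6.09, 18.9 and 37.9 CPM in HFD mice. Its difference was 0.81 ± 0.33, 2.53 ± 0.33 and 1.71 ± 0.31 (limma, adjusted p = 0.0462, 2.45e-07 and 0.000103). At 34 weeks 5 of 6 HFD mice exceeded all CD mice in Mcm5, and the remaining mouse, HFD mouse 6, had 9.29 CPM. The 8 week call of Mcm5 was lost with TMM scaling (adjusted p = 0.0598), with median-of-ratios scaling (0.0664) and without the filter (0.074).

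Pcna was the most abundant gene per length in all 6 groups, with mean levels of 21.1 CPM per kilobase of exon in 8 week CD and 71.2 in 34 week HFD mice. Its lowest, median and highest levels were 43.2, 49.4 and 58.8 CPM in CD and 47.5, 65.4 and 73.0 CPM in HFD mice at 8 weeks, and the diets overlapped. At 20 weeks they were 37.3, 51.3 and 63.5 CPM in CD and 76.4, 115 and 135 CPM in HFD mice, without overlap. At 34 weeks they were 47.2, 64.1 and 153 CPM in CD and 92.2, 183 and 234 CPM in HFD mice. The difference was 0.28 ± 0.22 at 8 weeks (limma, adjusted p = 0.305), which did not pass the test, and 1.13 ± 0.22 and 1.24 ± 0.20 at 20 and 34 weeks (adjusted p = 4.72e-05 and 3.39e-05). Ccnb2-ps, Pcna-ps1 and Pcna-ps2, pseudogenes of these genes, stayed at or below 1.17 CPM in every mouse, and reads shared with such copies cannot be assigned with certainty. Per kilobase of exon, Ccnb1 had the lowest mean of the set in all 6 groups.

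**Figure D2:**
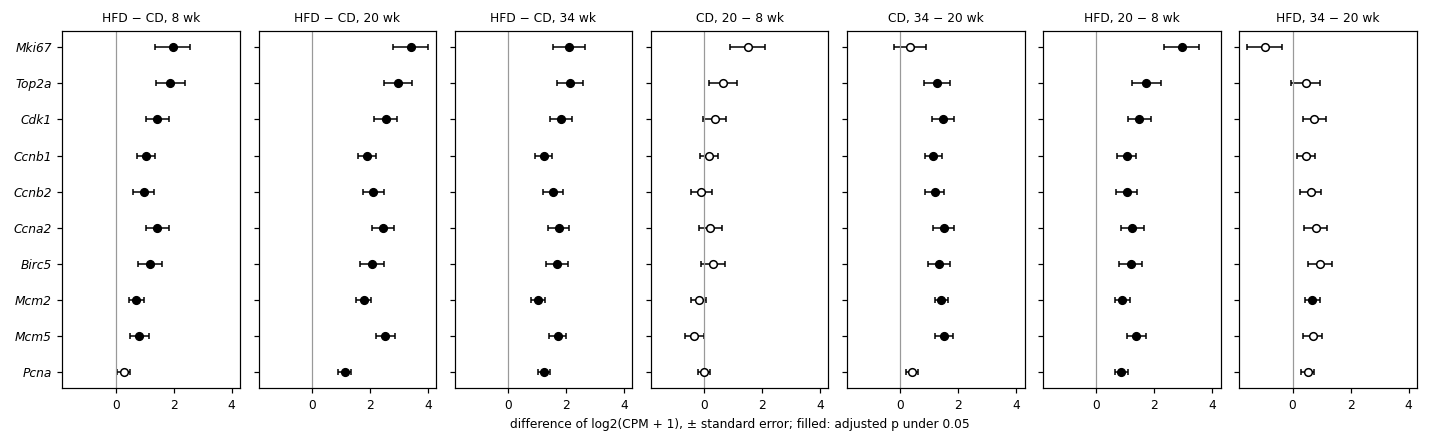
Differences of log2(CPM + 1) for each gene in 7 comparisons, with standard errors as bars. Filled points passed an adjusted p of 0.05, and the panels show 9, 10, 10, 0, 8, 10 and 1 filled points from left to right.

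As a set, 9 of the 10 genes were called higher in HFD mice at 8 weeks, when 28.4% of all genes tested were called higher. Pcna was the exception. At 20 weeks 10 of 10 were called higher, beside 38.2% of all genes tested, and at 34 weeks 10 of 10, beside 26.9%. The median difference over the genes was 1.11, 2.28 and 1.69. The separation between mice changed with the duration, in the set and in all genes tested. In the share of genes without overlap between the diets, the set lay near all genes tested at 8 and 34 weeks. The 34 week CD group had 8 mice, among them CD mouse 5, the highest of its group for all 10 genes. Every HFD mouse exceeded every CD mouse for 2 of 10 genes at 8 weeks, beside 14.2% of all genes tested, for 10 of 10 at 20 weeks, beside 25.9%, and for 0 of 10 at 34 weeks, beside 1.44%. The 8 week count rested partly on HFD mouse 3, the highest of its group for all 10 genes. Without that mouse 5 of 10 genes were called, and Ccnb2, Birc5, Mcm2 and Mcm5 no longer passed. Single other mice ended the call of Ccnb2, Mcm2 or Mcm5, and for Mcm5 a total of 14 mice did so in turn, HFD mouse 3 included.

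The change of the diet difference with duration was tested as an interaction. From 8 to 20 weeks the difference increased by 1.72 ± 0.47 for Mcm5 (limma, adjusted p = 0.0315), which was the only gene of the 10 called, beside 4.9% of all genes tested called either way. The increase of the other 9 ranged from 0.85 to 1.45 and did not pass the test. The Mcm5 call was lost with edgeR (adjusted p = 0.0536) and when any of 6 mice was left out (adjusted p up to 0.0686). From 20 to 34 weeks 0 of 10 were called with limma, edgeR or DESeq2, beside 9.88% of all genes tested with limma, and 1 of 10 (Mcm2) had an unadjusted p under 0.05. The estimates of that change ran from -1.30 for Mki67 to 0.11 for Pcna.

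In CD mice the set did not pass the test between 8 and 20 weeks. Limma, edgeR and DESeq2 each called 0 of 10 genes, beside 3.31% of all genes tested with limma, and 1 of 10, Mki67, had an unadjusted p under 0.05 (difference 1.50 ± 0.60, adjusted p = 0.179). CD mouse 1 of 20 weeks was the highest of its group for all 10 genes, with 59.4 CPM of Mki67 where the next mouse had 17.2. Between 20 and 34 weeks 8 of the 10 genes rose in CD mice, beside 39.0% of all genes tested called higher. The called differences ran from 1.14 ± 0.30 for Ccnb1 to 1.51 ± 0.31 for Mcm5 (limma, adjusted p = 0.00143 and 0.000107). Mki67 (0.34 ± 0.56, adjusted p = 0.618) and Pcna (0.41 ± 0.20, adjusted p = 0.077) did not pass. The groups overlapped for all 10 genes, when 10.6% of all genes tested did not, while 7 of 8 CD mice of 34 weeks exceeded every 20 week CD mouse in Mcm2. CD mouse 5 of 34 weeks was the highest of its group for all 10 genes, at 94.2 CPM of Mki67, 50.3 CPM of Top2a and 153 CPM of Pcna, and without it 7 of 10 genes were called. Top2a was the gene lost (adjusted p = 0.0516), as it was without CD mouse 3 of 20 weeks (adjusted p = 0.0608).

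In HFD mice all 10 genes rose between 8 and 20 weeks, beside 21.3% of all genes tested called higher, and 4 of 10 (Mki67, Top2a, Mcm2 and Pcna) did so without overlap, beside 14.4%. The differences ran from 0.86 ± 0.22 for Pcna to 2.94 ± 0.60 for Mki67 (limma, adjusted p = 0.00295 and 0.00045). Ccnb2 and Birc5 were lost with edgeR, which called 8 of 10. Between 20 and 34 weeks 1 of 10 genes was called higher, beside 15.3% of all genes tested. That gene was Mcm2, with 13.8 ± 2.1 CPM at 20 and 24.1 ± 8.6 CPM at 34 weeks (SD, n = 6 each; difference 0.68 ± 0.26; limma, adjusted p = 0.045), and the call was lost with a pseudocount of 0.25, without the filter and with median-of-ratios scaling (adjusted p = 0.0603, 0.0709 and 0.0573). The other differences were positive and between 0.45 and 0.95 for 8 genes, and -0.96 ± 0.60 for Mki67 (adjusted p = 0.237), none past the threshold. HFD mouse 6 of 34 weeks was the lowest of its group for 9 of 10 genes. Without that mouse 3 of 10 genes were called (Mcm2, Mcm5 and Pcna), and 0 of 10 when any of 9 other HFD mice was left out.

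The order of the group means was the same for 6 of the genes (Top2a, Cdk1, Ccnb1, Ccna2, Birc5 and Pcna). It rose from CD of 8 weeks through CD of 20 weeks, HFD of 8 weeks, CD of 34 weeks and HFD of 20 weeks to HFD of 34 weeks. In Ccnb2, Mcm2 and Mcm5 the 20 week CD mean was the lowest, and in Mki67 the 20 week HFD mean was the highest. Mice of neighbouring groups in this order overlapped in 49 of 50 steps. The exception was Ccnb2 between CD and HFD mice of 8 weeks, with a gap below the CPM of 1 read.

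**Figure D3:**
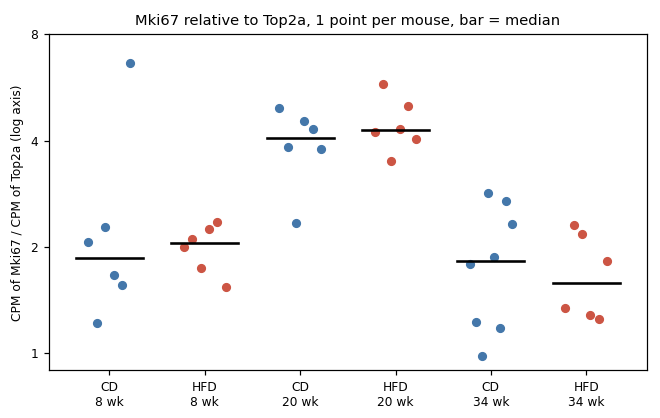
Ratio of Mki67 CPM to Top2a CPM (log axis) in each mouse, by diet and duration, with a bar at the median. The medians of the 20 week groups, 4.07 in CD and 4.28 in HFD mice, stand above those of the other groups, which lie between 1.57 and 2.05.

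Because Mki67 was the gene with a negative estimate in HFD mice between 20 and 34 weeks, its level relative to the other genes of the set is described here. The gene was singled out by its own values in this contrast, so the ratios carry no test. The ratio of Mki67 to Top2a CPM does not depend on the scaling of a mouse. Its lowest, median and highest values in HFD mice were 1.54, 2.05 and 2.36 at 8 weeks, 3.50, 4.28 and 5.79 at 20 weeks and 1.25, 1.57 and 2.31 at 34 weeks, so that the 20 week mice overlapped with no other HFD group. In CD mice they were 1.22, 1.86 and 6.63 at 8 weeks, 2.33, 4.07 and 4.96 at 20 weeks and 0.985, 1.83 and 2.84 at 34 weeks. On the log2 scale the mean ratio was higher by 1.16 at 20 than at 8 weeks and lower by 1.43 at 34 than at 20 weeks of HFD. In CD mice the corresponding differences were 0.84 and -1.15, with overlap in both. Between the diets the mean log2 ratio differed by -0.12, 0.20 and -0.08 at 8, 20 and 34 weeks.

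In HFD mice the ratio of Mki67 to all 9 others was lower at 34 than at 20 weeks without overlap, by 1.43 (Top2a) to 2.03 (Birc5) on the log2 scale. These 9 ratios share the Mki67 values and are not independent. The median ratio of Mki67 to Cdk1 was 4.93, 12.3 and 2.83 in HFD and 5.43, 14.8 and 3.70 in CD mice at 8, 20 and 34 weeks. The median ratio to Ccnb1 was 9.65, 28.4 and 9.25 in HFD and 9.98, 27.4 and 6.89 in CD mice. The ratio to Pcna behaved differently, with CD medians of 0.0656, 0.267 and 0.265 and HFD medians of 0.3195, 1.45 and 0.416, so that it was level between 20 and 34 weeks of CD. At 20 weeks the ratio to Pcna ranged from 0.069 to 0.936 in CD and from 1.09 to 1.52 in HFD mice, without overlap between the diets. Relative to Mcm2, CD mice had median ratios of 0.812, 4.32 and 1.53, and HFD mice of 3.20, 11.5 and 3.17.

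Within groups the 10 genes varied together. After each group mean was removed, the correlation of log2(CPM + 1) over the 38 mice ranged from 0.73 (Mki67 and Birc5) to 0.95 (Cdk1 and Birc5) over the 45 pairs, with a median of 0.86. These mice share the library depth and the cell make-up of each preparation, so the values describe the set and carry no test. Mki67 had the weakest correlation with the mean of the other genes (0.85) and Ccnb2 the strongest (0.95). The 10 genes outside the set that were most alike by this measure, over the same 38 mice, were Rrm2 (0.97), Tpx2 (0.96), Actr2 (0.96), Racgap1 (0.96), Melk (0.95), Tk1 (0.95), Slc25a13 (0.95), Prc1 (0.95), Mcm6 (0.95) and Bub1 (0.95). Most of them act in DNA synthesis or mitosis, while Actr2 encodes a subunit of the Arp2/3 actin nucleator and Slc25a13 a mitochondrial aspartate and glutamate carrier. The median over the 12905 other genes tested was 0.13. It was 0.90 for 45 other mitosis genes, 0.72 for 36 other replication genes and 0.52 for 19 regulators of G1. The likeness was not limited to cell cycle genes. The median was 0.81 for 11 macrophage markers, 0.75 for 7 lipid-associated macrophage markers and -0.78 for 8 adipocyte markers. For 7 endothelial and 8 progenitor and fibroblast markers it was 0.41 and 0.51.

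**Figure D4:**
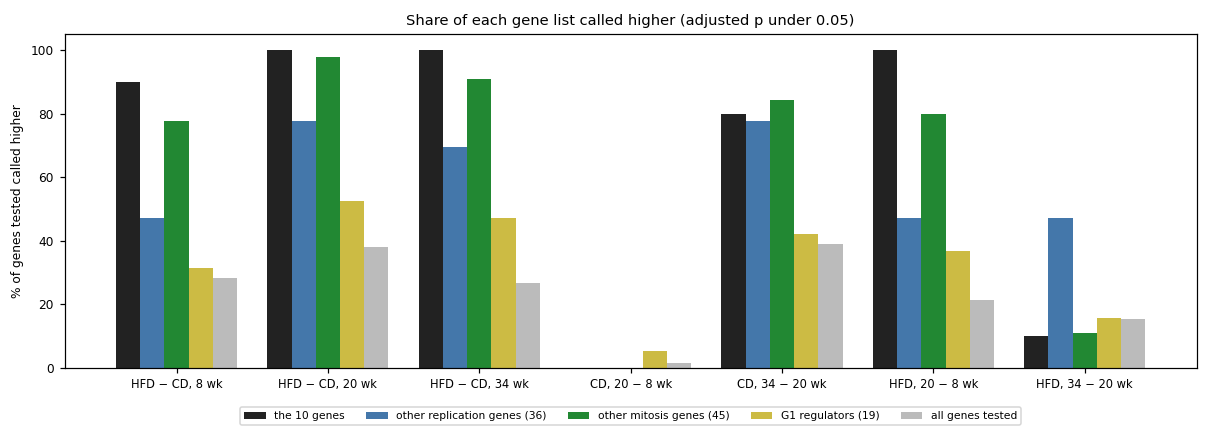
Share of each gene list called higher (%) in 7 comparisons, for the 10 proliferation genes, 36 other replication genes, 45 other mitosis genes, 19 regulators of G1 and all 12915 genes tested. The mitosis genes stand next to the proliferation genes in each diet comparison, and the G1 regulators lie nearer to the grey bars of all genes.

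Other genes of the cell cycle were counted in 3 lists that exclude the set. Of 36 replication genes 17, 28 and 25 were called higher and 1, 0 and 1 lower with HFD at 8, 20 and 34 weeks. Beside them 28.4%, 38.2% and 26.9% of all genes tested were called higher. The median difference was 0.43, 0.82 and 0.58, beside 0.13, 0.15 and 0.07 over all genes tested. Mcm7, another helicase subunit, fell by 0.47 at 8 weeks (SE 0.11, limma, adjusted p = 0.00131), and Orc6, of the origin recognition complex, fell by 0.35 at 34 weeks (SE 0.11, adjusted p = 0.00943). Rrm2, a subunit of ribonucleotide reductase, rose by 1.03, 2.23 and 1.93, and Tyms, thymidylate synthase, by 0.72, 0.75 and 0.79. Mcm6 rose by 2.33 and 1.71 at 20 and 34 weeks, and its value at 8 weeks was 0.77 (adjusted p = 0.0579). Between 20 and 34 weeks 28 of the 36 rose in CD and 17 in HFD mice. Of all genes tested 39.0% and 15.3% were called higher there.

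Of 45 mitosis genes 35, 44 and 41 were called higher and 0, 0 and 1 lower with HFD at 8, 20 and 34 weeks. Their median difference was 0.86, 1.65 and 1.28, and 28.4%, 38.2% and 26.9% of all genes tested were called higher. Cks1b, which encodes a small protein that binds cyclin-dependent kinases, was the gene called lower (-0.49 ± 0.16, limma, adjusted p = 0.0121). Aurkb, the kinase of the chromosomal passenger complex, rose by 0.99, 1.64 and 1.19, and Plk1, the polo-like kinase, by 0.82, 1.62 and 1.42. Ube2c and Cdc20, which act with the anaphase-promoting complex, rose by 1.90, 2.03 and 0.90 and by 0.93, 1.43 and 1.05. Between 20 and 34 weeks 38 of the 45 rose in CD mice and 5 in HFD mice. Of all genes tested 39.0% and 15.3% were called higher, so the HFD count lies below that share. Between 8 and 20 weeks of CD, limma called 0 of the 36 replication genes and 0 of the 45 mitosis genes, with 2 and 1 at an unadjusted p under 0.05. EdgeR called 1 and 0 of them and DESeq2 1 and 1. Of all genes tested limma called 3.31% either way.

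Of 19 regulators of G1, 6, 10 and 9 were called higher and 2, 1 and 2 lower with HFD at 8, 20 and 34 weeks, beside 28.4%, 38.2% and 26.9% of all genes tested called higher. The 8 week count is near that share. Ccnd1, which encodes cyclin D1, had a median of 1.31, 2.58 and 5.60 CPM in CD and 7.44, 33.5 and 58.6 CPM in HFD mice, and it rose by 1.97 ± 0.46, 3.31 ± 0.46 and 2.70 ± 0.43 (limma, adjusted p = 0.00126, 6.36e-07 and 2.73e-05). Ccnd2, which encodes cyclin D2, went the other way, with a median of 354, 349 and 360.2 CPM in CD and 395, 249.9 and 250.1 CPM in HFD mice. Its difference was 0.22 ± 0.15 at 8 weeks (adjusted p = 0.235), -0.49 ± 0.15 at 20 weeks (adjusted p = 0.00508) and -0.51 ± 0.14 at 34 weeks (adjusted p = 0.00379). E2f1, a transcription factor of the G1 to S transition counted among the replication genes, rose by 1.42 and 1.52 at 8 and 20 weeks and differed by 0.38 at 34 weeks (adjusted p = 0.135). For E2f1 the diet difference shrank by 1.14 from 20 to 34 weeks (SE 0.30, limma interaction, adjusted p = 0.0148), while CD mice rose by 1.55 in the same interval.

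**Figure D5:**
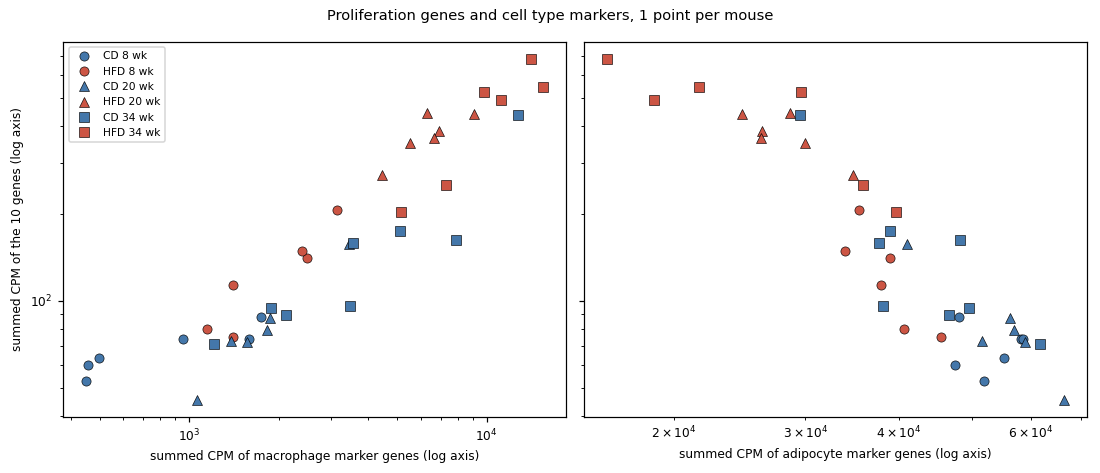
Summed CPM of the 10 proliferation genes in each mouse (log axis) against the summed CPM of 11 macrophage markers (left, log axis) and 8 adipocyte markers (right, log axis). Pcna and Mki67 had the highest mean CPM of the 10 genes in every group and weigh most in their sum. In 8 week CD mice Pcna had a mean of 50.7 CPM and the sum a median of 68.8 CPM. Mice with more macrophage marker RNA tended to have more proliferation gene RNA. Sums were 451 and 52.8 CPM in the lowest 8 week CD mouse and 15474 and 547 CPM in HFD mouse 4 of 34 weeks.

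The median sum of the macrophage markers was higher with HFD at all 3 durations, as was that of the set. From 8 to 20 weeks of CD the median macrophage sum went from 725 to 1696 CPM. The median sum of the set went from 68.8 to 76.1 CPM there. Of 13 macrophage marker symbols 11 were among the genes measured. The missing symbols, Adgre1 and Emr1, are names of the same gene, which had been planned as the defining marker. The summed level of the 11 genes ranged from 451 to 1747, 1067 to 3440 and 1214 to 12721 CPM in CD mice and from 1146 to 3148, 4464 to 9076 and 5148 to 15474 CPM in HFD mice at 8, 20 and 34 weeks. Of these 11 genes 6, 7 and 9 were called higher with HFD and 0, 1 and 0 lower. The share of all genes tested called higher was 28.4%, 38.2% and 26.9%. Csf1r, the receptor for the macrophage growth factor, had a median of 61.0, 143 and 265 CPM in CD and 178, 576 and 860.2 CPM in HFD mice. Markers of lipid-associated macrophages were called higher for 6, 7 and 6 of 7 genes, and their sums ranged from 276 to 483, 309 to 1785 and 440.0 to 4733 CPM in CD and from 417 to 1847, 3090 to 9174 and 3290 to 9685 CPM in HFD mice. Trem2, their defining marker, had a median of 3.13, 4.87 and 87.6 CPM in CD and 26.3, 283 and 483 CPM in HFD mice. The summed adipocyte markers moved the opposite way, with medians of 53582, 56586 and 42759 CPM in CD and 38349, 27433 and 25628 CPM in HFD mice. Of these 8 genes 2, 6 and 7 were called lower and 1, 1 and 0 higher at 8, 20 and 34 weeks. At 8 weeks Cfd (adipsin) had a mean of 17207 ± 1822 CPM in CD and 3483 ± 2705 CPM in HFD mice (SD, n = 6 each), whereas Fabp4, a fatty acid binding protein gene, had 14689 and 14749 CPM and Lep (leptin) 829.6 and 4249 CPM.

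Several mice that stood out in the set stood out in these sums as well, but not all did. HFD mouse 6 of 20 weeks was the highest of its group for 8 of 10 genes. Its macrophage sum of 6305 CPM lay below the group median of 6479 CPM. CD mouse 5 of 34 weeks had the highest macrophage sum of its group (12721 CPM) and the lowest adipocyte sum (29523 CPM). CD mouse 1 of 20 weeks (3440 and 41022 CPM) and HFD mouse 3 of 8 weeks (3148 and 35385 CPM) had the highest macrophage sums of their groups. Conversely, HFD mouse 6 of 34 weeks had the lowest macrophage sum (5148 CPM) and the highest adipocyte sum (39609 CPM) of its group. Endothelial sums had medians of 53.0, 97.3 and 68.5 CPM in CD and 190.2, 241 and 152 CPM in HFD mice, and progenitor and fibroblast sums 578, 608 and 1027 CPM in CD and 1345, 1283 and 1253 CPM in HFD mice. With HFD at 8, 20 and 34 weeks 7, 6 and 7 of 7 endothelial markers, 7, 7 and 4 of 8 progenitor and fibroblast markers and 5, 4 and 3 of 6 mural markers were called higher, and 0 were called lower. Beside them 28.4%, 38.2% and 26.9% of all genes tested were called higher. Between 20 and 34 weeks of CD and between 8 and 20 weeks of HFD 0 of 7 endothelial markers were called. Of the 8 progenitor and fibroblast markers 3 and 4 were called higher and 0 and 1 lower there. Of all genes tested 39.0% and 21.3% were called higher, and the count of 3 is near that share. In the same 2 intervals 6 and 8 of 11 macrophage markers were called higher and 2 and 0 lower. Lipid-associated macrophage markers were called higher for 6 and 7 of 7 genes. The mural markers summed to medians of 119 to 324 CPM and the mesothelial markers to 9.66 to 31.5 CPM in the 6 groups. T cell markers summed to at most 5.93 CPM and epididymis markers to at most 12.0 CPM, Cd3e had a median of 0 to 0.0804 CPM in the 6 groups, and Defb20 had a median of 0 CPM in each. Erythroid markers, with 6 of 8 in the table, reached 217 CPM in 1 mouse and had medians of 8.55 to 22.6 CPM. The testis germ cell sum rose from a median of 9.99 CPM in 8 week CD to 80.8 CPM in 34 week HFD mice almost wholly through Sycp3, at 7.52 and 78.9 CPM, while Prm1 had a median of 0 to 0.0646 CPM and at most 10.4 CPM.

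When the mean log2 level of the 11 macrophage markers was added to the fit as a covariate, 1 of the 10 genes was called with HFD at 8 weeks (Top2a), 10 of 10 at 20 weeks and 5 of 10 at 34 weeks (Top2a, Cdk1, Ccna2, Mcm5 and Pcna). Of all genes tested 20.9%, 24.2% and 8.45% were called higher in the same fits, against 28.4%, 38.2% and 26.9% without the covariate. The 20 week differences then ran from 0.50 for Pcna to 1.53 for Mcm5. Between 8 and 20 weeks of HFD 0 of 10 were called with the covariate, when 3.62% of all genes tested were called higher, and 8 of 10 between 20 and 34 weeks of CD, beside 58.2% called either way, among them a fall of Mki67 by 0.63 (adjusted p = 0.0357). In HFD mice of 34 against 20 weeks the Mki67 estimate was -1.51 with the covariate and -0.96 without it (limma, adjusted p = 0.237). The gene was singled out in this contrast, so no p-value with the covariate is read for it. With the covariate 3955 of 12915 genes tested were called there, 1812 of them lower. The markers respond to the diet themselves, so the covariate also takes up part of the diet difference, and in bulk RNA more dividing cells of a type and more RNA per cell cannot be told apart. The cells in which these transcripts lay were not measured.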

How the data were processed

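RNA-seq of the adipocyte fraction of 38 mice was analysed, with 3 technical replicates per mouse (114 samples in all) merged into 1 value per gene by the authors. Per the study's methods, the authors prepared stranded mRNA libraries, aligned reads to mm10 with STAR (version 2.5.2b in the submitters' notes), counted reads on the union of exons with featureCounts and GENCODE vM2, discarded genes without an Entrez identifier and computed TMM factors. The deposited values are CPM, and each column sums to 1000000, so they carry no TMM scaling. The design had assumed TMM-scaled CPM. Whole reads were recovered from 100.0% of the values within 0.1 reads.

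On the log2(CPM + 1) scale, 12915 genes had a mean exceeding 0.5 and entered a limma model (version 3.58.1, R 4.3.3) of all 6 groups with a mean-variance trend and 32 residual degrees of freedom, tested 2-sided with Benjamini-Hochberg adjustment at 0.05. Alternatives were another pseudocount (0.25), another filter (2.0) and none, TMM and median-of-ratios scaling, edgeR 4.0.16 and DESeq2 1.42.0 on the recovered reads, separate fits of each comparison, a macrophage covariate, the mouse number as a block, leaving out each mouse, and a required 2-fold difference. The fits were tested on simulated data. Exon lengths and overlaps came from GENCODE vM21, and positions and promoters from RefSeq on GRCm38.

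The genes, the lists and the tests were chosen with earlier results of these data known. The genes named are the 10 genes, fixed members of each list, genes called against the direction of their list, the 10 most alike genes and marker genes. Sycp3, Csf1r and Exosc9 were named after their values were seen. The libraries had no molecular identifiers, and read numbers therefore speak to counting error only. The result of 1 marker list is not reported here.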

Additional observations from a re-analysis of the deposited data

Results flagged for a closer look

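In 60 combinations of gene and group, 3 had a mouse far from the others of its group by Dixon's criterion on log2(CPM + 1), and chance alone marks about 1 in 20. CD mouse 5 of 34 weeks was the highest of its group in Cdk1 (28.7 CPM) and in Pcna (153 CPM). CD mouse 2 of 8 weeks was the lowest of its group in Ccnb2 (0.245 CPM, 3 reads). The diet difference of Mcm5 changed between 8 and 20 weeks by 1.72 on the log2 scale in the test of the interaction (limma, adjusted p = 0.0315).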

How the results depend on the processing

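The 20 week count (10 of 10 called) and the 34 week count (10 of 10) were the same with both scalings, the other pseudocount, edgeR, DESeq2, no filter, separate fits and without any single mouse, while 8 of 8 were called with the filter of 2.0, which leaves out Ccnb1 and Birc5.
With the macrophage covariate 1, 10 and 5 of 10 genes were called in the diet comparisons of 8, 20 and 34 weeks, 3 in CD mice of 20 against 8 weeks (all lower), 0 and 2 in HFD mice of 20 against 8 and 34 against 20 weeks, and 3 for the change of the diet difference from 8 to 20 weeks. The 2 in HFD mice of 34 against 20 weeks were Mcm2, which was higher, and Mki67, which was lower. The Mki67 call is not read, since the gene was singled out in this contrast.
In HFD mice of 34 against 20 weeks 0 were called with a pseudocount of 0.25, without a filter, with median-of-ratios scaling, with the mouse number as a block or with a required 2-fold difference.
For the change from 8 to 20 weeks edgeR called 0 and separate fits called 5.
Leaving out each mouse in turn gave 5 to 9 calls for the diet at 8 weeks, 7 to 9 in CD mice of 34 against 20 weeks, 8 to 10 and 0 to 3 in HFD mice of 20 against 8 and 34 against 20 weeks and 0 to 3 for the change from 8 to 20 weeks. The lowest count at 8 weeks came without HFD mouse 3, and the counts of 3 came without CD mouse 5 of 34 weeks, which belongs to neither comparison and enters through the shared spread, and in HFD mice of 34 against 20 weeks also without HFD mouse 6 of 34 weeks. At 8 weeks 7 were called without a filter and 6 with a required 2-fold difference.
With the covariate these differences turned sign: Pcna at 8 weeks (-0.16), in CD mice of 20 against 8 weeks Top2a (-0.42), Cdk1 (-0.40), Ccnb1 (-0.41), Ccna2 (-0.56), Birc5 (-0.48) and Pcna (-0.41), in CD mice of 34 against 20 weeks Mki67 (-0.63), and in HFD mice of 20 against 8 weeks Ccnb2 (-0.048).
Leaving out 1 mouse turned values near 0: in CD mice of 20 against 8 weeks Ccnb2 (-0.26 to 0.0025) and Pcna (-0.062 to 0.088), in CD mice of 34 against 20 weeks Mki67 (-0.064 to 0.75), and for the change from 20 to 34 weeks Pcna (-0.0014 to 0.27).
The mouse numbers do not pair the mice, since same-numbered mice of 2 groups correlated between -0.62 and 0.49 (median -0.055). With the number as a block 8, 10 and 10 genes were called for the diet, the Mcm5 call at 8 weeks and the Mcm2 call in HFD mice of 34 against 20 weeks were lost (adjusted p = 0.0614 and 0.0706), and no other call changed.
The ratio of Mki67 to Top2a, an addition after the data were seen, kept its direction without any mouse (-1.53 to -1.35 for HFD mice of 34 against 20 weeks). In CD mice of 20 against 8 weeks it ran from 0.68 to 1.17.
Low CD levels limit the smallest genes, with 2 to 9 reads of Birc5 per mouse at 8 weeks. The cause of these changes was not tested.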
